A study of Xenopus laevis with 4 samples.

Results

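Regulatory genes of the early neural ectoderm were followed across 4 explants of the Xenopus laevis gastrula at stage 10, the onset of gastrulation. The genes were sox2.L, zic4.L, lhx5.S and irx2.L, with the neural border gene kctd15.L, and each was found by the gene symbol that the array's annotation gives its probe sets. These 5 genes had 7 probe sets, of 15491 probe sets and 7531 named genes in all. The study dissected embryos into regional explants to profile expression by region, so that a gene's pattern could be predicted from where its RNA was high. The explants were the animal cap (the roof of the embryo, future ectoderm), the dorsal marginal zone (the equatorial sector that holds the Spemann organizer), the ventral marginal zone opposite to it, and the vegetal explant (the yolky floor, future endoderm). No strain, genotype or treatment is named in the labels, and embryos or dissections per explant are not stated. RNA of each explant was hybridised to 1 array, so every value below is 1 reading in scaled intensity units, and there is no replicate from which a test or an error could be had.

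In vertebrate embryos, neural tissue arises from dorsal ectoderm in which BMP signalling is low, under the influence of antagonists made by the organizer, while ectoderm exposed to BMP becomes epidermis. Genes of the SoxB1 group (sox2 and its relatives) and of the Zic and Iroquois families are among the earliest transcription factor genes of this neural territory. The neural plate border lies between the neural plate and the epidermis and gives rise to neural crest and placodes. At stage 10 no neural plate has formed yet.

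The arrays had similar median signals, from 137 to 158. Each array also had a mean of 500.1 without its lowest and highest 2% of probe sets, a common value that scaling would fix. This mean therefore cannot show whether the arrays were comparable. The mean log2 signals of 18 hybridisation control probe sets spanned 0.26 over the arrays, and were 0.21 higher dorsally than ventrally. Signals at or below 24.7 were taken to be at a floor, and a probe set was compared between explants if at least 1 of the arrays involved reached 147, the median of all values, here called the filter. A probe set under the filter on 1 of 2 arrays compared thus entered only through its higher side. A difference was counted from 2-fold upwards, and a fold with its lower side at the floor is a lower bound. Regional markers were high where the labels place them, and organizer and mesoderm markers were high vegetally as well. The sums below weigh bright probe sets most. Over 18 probe sets of epidermal markers the summed signal was 57130.2 in the cap, 32469.8 ventrally, 19433 dorsally and 1341 vegetally, where 9 of the 18 lay at the floor. Over 14 probe sets of organizer markers the sum was 23433 dorsally, 20948 vegetally, 8736.5 ventrally and 616 in the cap, where 9 of the 14 lay at the floor. Over 14 probe sets of endodermal markers it was 38582 vegetally, 9170.3 dorsally, 6699 ventrally and 236 in the cap. Over 12 probe sets of mesoderm markers it was 18056.9 dorsally, 16749.1 ventrally, 13216.6 vegetally and 928.1 in the cap.

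The 5 genes did not share 1 pattern. On their brighter probe sets, RNA of sox2.L and lhx5.S was high in the animal cap and both marginal zones and low vegetally. Their dimmer probe sets were under the filter in both marginal zones. RNA of zic4.L and irx2.L was highest in the dorsal marginal zone, though by under 2-fold over the cap and, for irx2.L, over the vegetal explant. It was lowest in the ventral marginal zone for irx2.L and in the ventral and vegetal explants for zic4.L. RNA of kctd15.L was high in the cap and the ventral marginal zone, lower dorsally and lowest vegetally. In bulk explants, fewer cells that express a gene and less RNA per cell cannot be told apart.

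The SoxB1 gene sox2.L encodes an HMG-box transcription factor that marks neural progenitors and keeps them undifferentiated. Its brighter probe set had a signal of 441 in the cap, 409 dorsally, 390 ventrally and 65.7 vegetally. The 3 upper explants lay within 1.13-fold of each other and so were not separated, while the vegetal signal stood 5.93-fold below the lowest of them. The dorsal minus ventral difference of 0.07 (log2) was smaller than 0.23, the robust SD of that difference over 2698 probe sets of medium brightness. That spread includes real regional differences and is no replicate error.

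A dimmer probe set for sox2.L never reached the filter. It had 48.4 in the cap and 64.8 dorsally, and was below the floor ventrally (18.1) and vegetally (3.3). On it the dorsal marginal zone was at least 2.63-fold above the ventral, a difference absent from the brighter probe set. By the array maker's naming, the brighter probe set (suffix x) may hold probes that match other transcripts, and what these add was not tested. The probe sets therefore place sox2.L low in the vegetal explant but leave its dorsal-ventral level unsettled.

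The LIM-homeodomain gene lhx5.S, known in Xenopus as lim5, encodes a factor of the anterior neural plate and later of the forebrain. Its brighter probe set had 731 in the cap, 546 dorsally, 488 ventrally and 13.4 vegetally, which is below the floor. The vegetal explant was thus at least 19.8-fold lower than any other explant, and the upper 3 were not separated from their neighbours, with steps of 1.34-fold and 1.12-fold. The other probe set had 229 in the cap, 102 dorsally, 58.1 ventrally and 44.5 vegetally. It gave the same order of explants with a steeper fall from the cap to the marginal zones (2.25-fold to the dorsal and 3.94-fold to the ventral), and a shallower one to the vegetal explant (5.15-fold). Its suffix (s) marks probes shared by several transcripts, so RNA of related copies may be read with it.

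The zinc finger gene zic4.L belongs to a family that promotes neural and neural crest fates in Xenopus. Its probe set had 169 dorsally, 121 in the cap, 39.3 vegetally and 32.5 ventrally. The dorsal signal was 5.19-fold above the ventral and 4.29-fold above the vegetal, while the dorsal and cap signals were 1.39-fold apart and not separated. Only the dorsal array reached the filter, so comparisons without it were not counted, and the cap was 3.08-fold above the vegetal explant by signals that both lay under the filter.

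The Iroquois gene irx2.L encodes a TALE-class homeodomain factor, from a family that takes part in defining the neural plate in Xenopus. Its signals were 318 dorsally, 209 vegetally, 205 in the cap and 89.6 ventrally. The dorsal signal was 3.55-fold above the ventral one, and cap and vegetal explant (1.02-fold apart) were not separated. The ventral marginal zone was the low explant here, 2.28-fold below the cap and 2.34-fold below the vegetal explant. Of the 5 genes, irx2.L was the one whose vegetal signal was under 2-fold below its highest signal.

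The gene kctd15.L encodes a BTB-domain protein that restrains neural crest formation at the neural plate border, as shown in zebrafish. Its signals were 716 in the cap, 641 ventrally, 222 dorsally and 27.0 vegetally. Cap and ventral marginal zone were 1.12-fold apart, the dorsal marginal zone was 2.88-fold below the ventral, and the vegetal explant was 8.24-fold below the dorsal. The vegetal signal lay just above the floor, so the size of the 26.5-fold difference between cap and vegetal explant is loose.

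**Figure D1:**
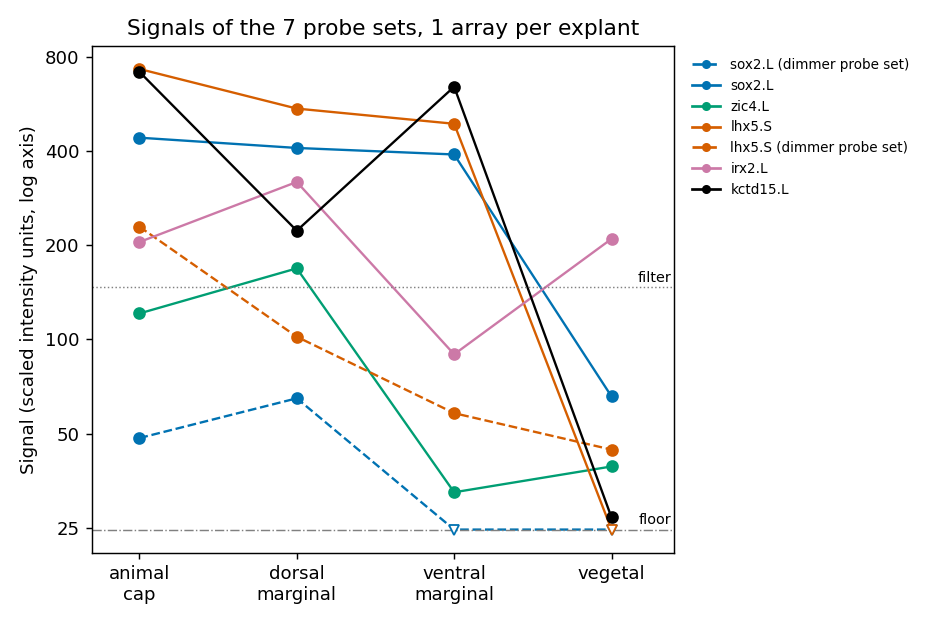
Signal of each of the 7 probe sets (vertical log axis, scaled intensity units) on the 1 array of each explant (horizontal axis); dashed lines are the dimmer probe sets of sox2.L and lhx5.S, open triangles are signals at or below the floor of 24.7, and the dotted line is the filter of 147. The kctd15.L line dips at the dorsal marginal zone (222), the irx2.L line dips at the ventral one (89.6), zic4.L is low ventrally and vegetally (32.5 and 39.3), and only irx2.L is above the filter in the vegetal explant (209).

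Along the animal-vegetal axis, 4 of the 5 genes entered the comparison of the animal cap with the vegetal explant, and 3 were 2-fold or more higher in the cap. In this comparison 9.14% of 8614 probe sets were 2-fold or more higher in the cap and 11.7% in the vegetal explant. The log2 differences were 4.73 for kctd15.L, 3.63 for lhx5.S and 2.75 for sox2.L. That of lhx5.S is the mean of a bound (at least 4.89) and 2.37 on the dimmer probe set. These 3 genes passed the filter here only through the cap, where they were high, so their cap excess is partly built in by the filter. For irx2.L the difference was -0.03.

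Along the dorsal-ventral axis all 5 genes entered, and they split. Of all 8094 probe sets compared, a 2-fold excess was dorsal in 1.38% and ventral in 1.17%. The genes zic4.L (log2 difference 2.38) and irx2.L (1.83) were higher dorsally, and kctd15.L (-1.53) was higher ventrally. On their brighter probe sets, lhx5.S (0.16) and sox2.L (0.07) were not 2-fold apart. Their dimmer probe sets did not enter, and were 1.75-fold (lhx5.S) and at least 2.63-fold (sox2.L) higher dorsally. Both zic4.L and irx2.L are dim, and among the 2698 dimmest probe sets the robust SD of the dorsal minus ventral difference was 0.39. The ventral excess of kctd15.L, which reached the filter in both marginal zones, was exceeded by 0.507% of probe sets. Both zic4.L and irx2.L passed the filter only through the dorsal array, where they were high. Their dorsal excess is therefore partly built in by the filter. With a filter at the 60th percentile zic4.L dropped out, leaving 1 gene higher dorsally. The summed organizer markers were also higher dorsally than ventrally, with none of their 14 probe sets at the floor dorsally and 3 ventrally, and their part in the dorsal excess of zic4.L and irx2.L was not tested.

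The cap differed less from the marginal zones than from the vegetal explant. Against the dorsal marginal zone, kctd15.L was the 1 gene of 5 that was 2-fold or more higher in the cap (3.22-fold), where 2.25% of 8118 probe sets were. None of the 5 was 2-fold higher dorsally, where 3.61% of probe sets were, and irx2.L and zic4.L had dorsal signals 1.56-fold and 1.39-fold above those of the cap. Against the ventral marginal zone, 4 genes entered and lhx5.S (2.43-fold) and irx2.L (2.28-fold) were higher in the cap, beside 1.44% of 8082 probe sets. The lhx5.S count rests on its dimmer probe set, because the brighter one was 1.5-fold higher in the cap. The dimmer probe set and irx2.L passed the filter here only through the cap, so their cap excess is partly built in. With the filter at the 60th percentile neither gene was counted here. Ventrally, 3.24% of probe sets and none of the 4 genes were higher than in the cap.

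Against the vegetal explant, the dorsal marginal zone was higher for 4 of 5 genes and lower for none. It was higher for 7.89% of 8595 probe sets and lower for 9.83%. The folds were at least 22.1 for lhx5.S, 8.24 for kctd15.L, 6.22 for sox2.L and 4.29 for zic4.L, with irx2.L at 1.52. The 4 genes counted lay under the filter vegetally and entered only through the dorsal array, so their excess is partly built in by the filter. With the filter at the 60th percentile 2 genes were counted instead of 4. The dimmer lhx5.S probe set, which did not pass the filter here, was 2.29-fold higher dorsally and 1.31-fold higher ventrally than vegetally, and without the filter the mean log2 difference of lhx5.S fell to 2.83 and 2.35. The ventral marginal zone was higher than the vegetal explant for 3 of 4 genes and lower for irx2.L (2.34-fold), a call lost with scaling to hybridisation controls and with the filter at the 60th percentile. Of 8574 probe sets, 7.86% were higher ventrally and 9.27% vegetally. The folds were 23.8 for kctd15.L, at least 19.8 for lhx5.S and 5.93 for sox2.L. These 3 genes entered only through the ventral array, and irx2.L only through the vegetal one, so the same limit holds. These comparisons share arrays, and each explant's single array enters 3 of the 6.

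**Figure D2:**
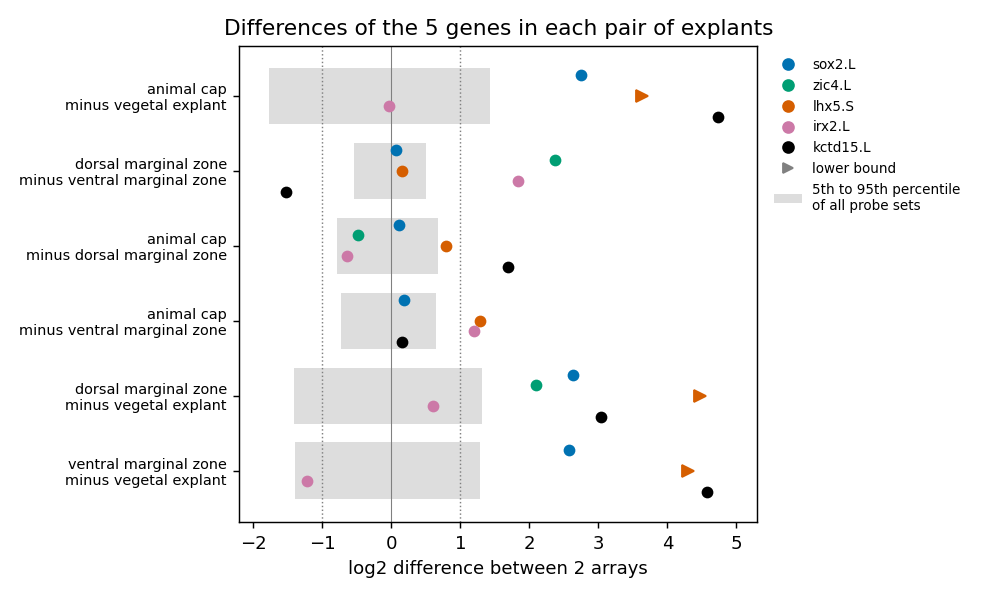
The log2 difference between the arrays (horizontal axis) of each gene in each of the 6 pairs of explants (rows); triangles are lower bounds, grey bars span the 5th to the 95th percentile of all probe sets that entered, and dotted lines mark 2-fold. In the row of the dorsal against the ventral marginal zone, zic4.L (2.38) and irx2.L (1.83) lie to the right of the bar and kctd15.L (-1.53) to its left. There sox2.L (0.07) and lhx5.S (0.16), each by its brighter probe set alone, lie inside the bar.

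Other genes of the same families showed whether a pattern was shared. Among SOX genes, 10 of 16 on the array had a probe set that reached the filter in at least 1 explant. The other SoxB1 gene that did so, sox3.S, had 3017 in the cap, 2188 dorsally, 1830 ventrally and 523 vegetally. The gene sox15.L, a neuralising factor of Xenopus ectoderm once named soxD, had 3200, 2538, 2414 and 1209 in that order. Both thus were lowest vegetally, as was sox2.L's brighter probe set, with cap over vegetal folds of 5.77 and 2.65 beside 6.71. The other explants of that sox2.L probe set were not separated, so no order among them is compared. The SoxC gene sox11.S, of neural progenitors, and sox13.S were nearly even, with 1.16-fold and 1.25-fold between cap and vegetal explant. The SoxF genes sox7.L and sox17 ran the opposite way: sox7.L was 68.4 in the cap and 360 vegetally, and sox17a.L was 28.3 and 1830. The SoxE gene sox9.S, a neural crest and cartilage regulator, was low in the cap (157) and dorsally (214), and high ventrally (567) and vegetally (568). A cap excess of 2-fold or more over the vegetal explant was found for sox2.L, sox3.S and sox15.L, and for no other SOX gene that reached the filter. Of all probe sets compared, 9.14% had such an excess.

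Within the Zic family, 4 of 5 genes reached the filter, and all 4 were higher in the dorsal than in the ventral marginal zone. The probe sets of zic1.S were 2.03-fold and 3.41-fold higher dorsally, that of zic2.L 2.06-fold, and those of zic2.S 1.68-fold and 3.16-fold, beside 5.19-fold for zic4.L. So 1 zic2.S probe set was under 2-fold. Of all probe sets compared, 1.38% were 2-fold or more higher dorsally. The zic4.L probe set and the dimmer one of zic2.S passed the filter between the marginal zones only through the dorsal array, so their excess is partly built in. The 4 genes differed at the vegetal pole. The zic2 copies were higher there than in the cap (zic2.L 1744 against 564, 3.09-fold), while zic1.S had 327 against 863 on 1 probe set and 1638 against 2318 on the other. The cap and vegetal signals of zic4.L (121 and 39.3) both lay under the filter. The RefSeq gene table of Xenopus_laevis_v10.1 lists zic4.L and zic1.L next to each other, with no gene between them, but no probe set carries the symbol zic1.L, and zic1.S belongs to the other subgenome.

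Of 5 Iroquois genes, irx1.L, irx2.L and irx3.L reached the filter. The signals of irx1.L were 200 in the cap, 321 dorsally, 83.4 ventrally and 180 vegetally. Its dorsal signal was 3.86-fold above the ventral one, beside 3.55-fold for irx2.L. Both genes lie on chromosome 6L, with 1 gene that is not protein coding between them in the RefSeq table. On its other side irx2.L is followed, again after 1 such gene, by irx4.L, whose probe set stayed at or below 36.9 in all explants. The gene irx3.L, of the second Iroquois cluster, had 192 dorsally, 161 vegetally, 106 ventrally and 36.6 in the cap. Its dorsal signal was also the highest, but under 2-fold above the vegetal one and 1.82-fold above the ventral one, so these were not separated. For irx3.L the cap was 5.24-fold below the dorsal marginal zone, and for irx2.L 1.56-fold.

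Of 8 LIM-homeobox genes, lhx5.S and lhx1.L reached the filter. The organizer gene lhx1.L had 198 dorsally, 117 vegetally and 98.7 ventrally, and was below the floor in the cap. The cap, where both lhx5.S probe sets were highest, was thus the lowest explant for lhx1.L, at least 8.03-fold below the dorsal marginal zone. Among 6 kctd genes, kctd2.S, kctd5.L and kctd10.L (on its brighter probe set) differed by under 2-fold in the cap-vegetal and dorsal-ventral comparisons, and kctd14.S was 4.04-fold higher vegetally than in the cap. The vegetal deficit and the dorsal dip of kctd15.L had no match among them.

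**Figure D3:**
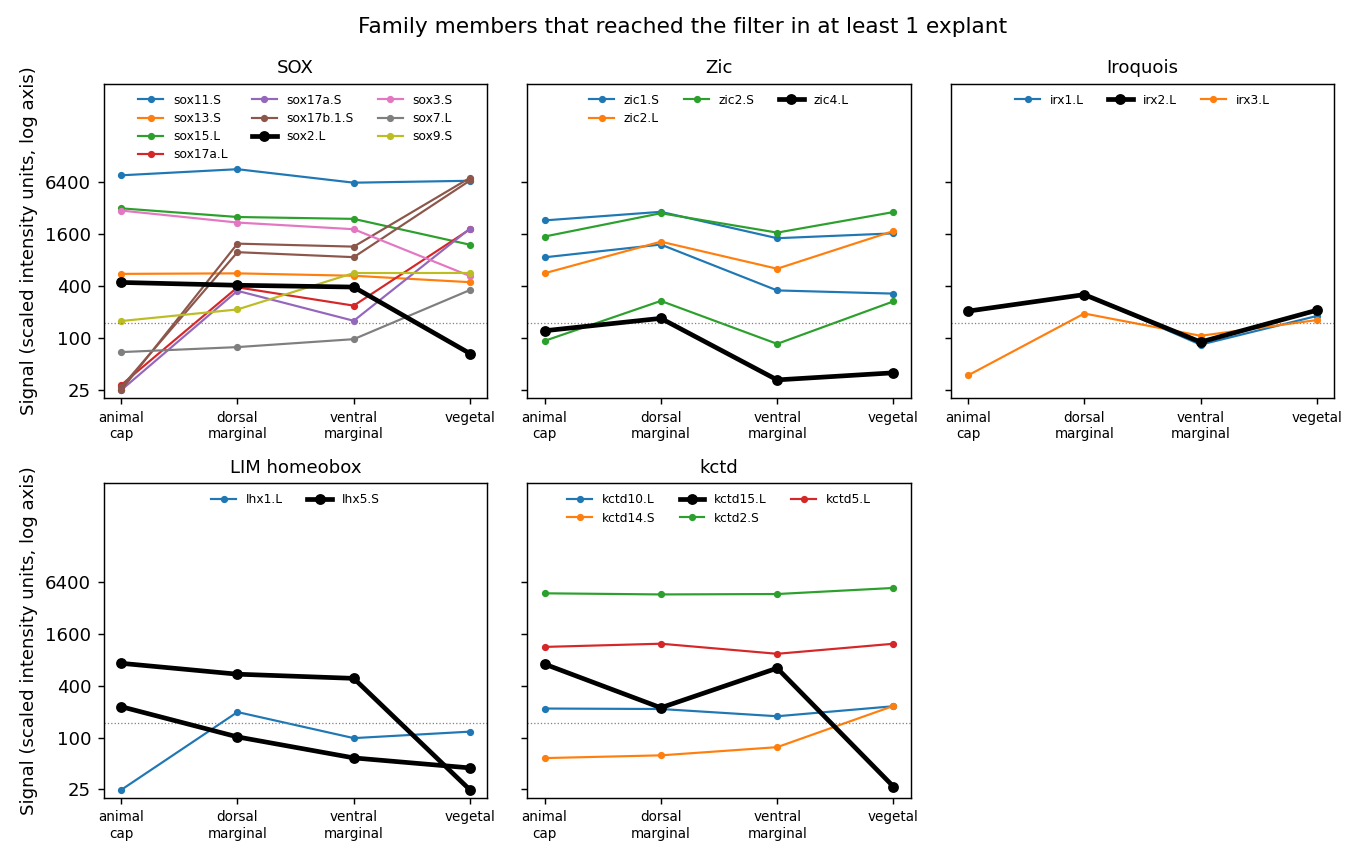
Signals (vertical log axis, scaled intensity units) of all family probe sets that reached the filter (dotted line, 147) in at least 1 explant, with signals under the floor drawn at it; each panel is a gene family, black lines are sox2.L, zic4.L, irx2.L, lhx5.S and kctd15.L, and coloured lines their relatives. The irx1.L line has the shape of that of irx2.L, sox3.S falls to the vegetal explant as sox2.L does, and sox17 genes rise there. Heights are compared between explants within a line, not between lines.

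The partner copies of these genes in the other subgenome could not be compared, since no probe set carried the symbol of zic4.S, lhx5.L, irx2.S or kctd15.S, and the gene table lists no sox2.S.

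The genes with the most similar profiles were sought among 4989 named genes by the root mean square difference of centred log2 values over the 4 explants. Nearest to irx2.L was irx1.L (0.09), then zdhhc8.S (0.21) and cptp.L (0.27). Nearest to zic4.L was zic1.S (0.42), followed by sh2d3c.L (0.46) and tmem221.S (0.47). So a relative from the same family came first for both irx2.L and zic4.L. Nearest to lhx5.S was meis3.S (0.11), a TALE homeobox gene of the posterior neural plate, with 686 in the cap, 468 dorsally, 325 ventrally and 67.4 vegetally. It was followed by mid1ip1.L (0.23) and the kinase gene akt2.L (0.25). The lhx5.S profile was the mean of its 2 probe sets, which differ in shape, with the brighter one at the floor vegetally. Neither probe set was ranked alone, so these matches are to an average. Nearest to sox2.L were the cyclin genes ccng1.L (0.06) and ccne2.L (0.11) and the RNA-binding protein gene larp1.L (0.12), and sox3.S was in place 18 (0.30). Nearest to kctd15.L were the grainyhead-like genes grhl1.L (0.23) and grhl3.L (0.24), regulators of epidermal differentiation, and ckap4.S (0.27). With 4 values per profile many genes lie close to each other, and the ranking by Pearson correlation shared 0 of these leading 3 genes for each of the 5.

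Among themselves, sox2.L and lhx5.S had a root mean square difference of 0.41, with lhx5.S in place 50 of the genes nearest to sox2.L and sox2.L in place 21 from lhx5.S. For zic4.L and irx2.L it was 0.65, with irx2.L in place 20 from zic4.L but zic4.L only in place 1154 from irx2.L. The profile of kctd15.L lay 0.88 from lhx5.S (place 46), 0.91 from sox2.L (place 51), 1.89 from zic4.L (place 2177) and 2.24 from irx2.L (place 4329). Distances of lhx5.S again rest on the mean of its unlike probe sets, and those of sox2.L on its brighter probe set alone.

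The wider neural list held 57 genes on the array, 4 of the 5 genes among them. Like the other lists, it was chosen with earlier results of these data known, so its shares are no independent contrast. Of 28 measured along the dorsal-ventral axis, 11 were 2-fold or more higher dorsally (39.3%, beside 1.33% of 4649 named genes), none ventrally and 17 neither. The median log2 difference was 0.52, beside -0.015 over all named genes. The largest excess was that of crx.S (16.6-fold), an otx-related gene, followed by its partner crx.L (12.6-fold), the head gene otx2.L (at least 8.62-fold) and the forkhead gene foxd4l1.1.S (7.1-fold), and then by zic4.L (5.19-fold). Between cap and vegetal explant the neural list divided, with 8 of 28 higher in the cap, 11 vegetally and 9 neither (median -0.25, beside -0.04 over 4892 named genes). Over all named genes the cap share was 7.28% and the vegetal share 10.8%. On the cap side were meis3.S (10.2-fold), sox2.L (6.71-fold), sox3.S (5.77-fold) and foxd4l1.1.S (3.49-fold), with lhx5.S at least 29.6-fold on its brighter probe set and 5.15-fold on the other. On the vegetal side were hesx1.S (at least 38.1-fold), otx2.L (19.6-fold), otx1.L (9.39-fold), hesx1.L (8.12-fold) and crx.L (4.65-fold), head homeobox genes that organizer or anterior endomesoderm also uses. Marker genes of organizer and endoderm were high in the same vegetal explant, and organizer markers also dorsally, as given above. The part of these markers in the vegetal and dorsal counts was not tested.

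The neural plate border list, which holds kctd15.L, lay on the other side of the dorsal-ventral axis. Of 22 measured genes, 9 were 2-fold or more higher ventrally, 2 dorsally and 11 neither (median -0.69), beside 1.16% of all named genes ventrally and 1.33% dorsally. All 9 ventral genes except kctd15.L and sox9.S (2.65-fold) also stand in the epidermal list. The ventral count is thus largely that of genes counted again in the epidermal list below. Higher ventrally were msx1.L (5.22-fold), dlx3.S (4.66-fold), dlx3.L (3.41-fold), tfap2a.L (2.9-fold) and kctd15.L (2.88-fold), of which the first 4 are genes induced by BMP or early epidermal regulators. Higher dorsally were lrig3.S (6.43-fold), which encodes a membrane protein with a role in Xenopus neural crest formation, and zic1.S (2.63-fold). Between cap and vegetal explant, the cap was the higher side for 9 of 20 and the vegetal explant for 4 (median 0.81), beside 7.28% and 10.8% of all named genes. On the cap side dlx3.S (at least 46.9-fold), kctd15.L (26.5-fold), dlx3.L (19.3-fold), dlx6.S (11.7-fold) and tfap2a.L (7.66-fold) led. The transcription factor AP-2 alpha that tfap2a encodes is a target that Kctd15 protein inhibits, as known from zebrafish. The signals of tfap2a.L were 2569 in the cap, 1884 ventrally, 651 dorsally and 335 vegetally. Like kctd15.L, it was thus higher in the cap and ventrally than dorsally, and lowest vegetally. The cap and ventral signals of kctd15.L were not separated, and a link between the genes was not tested.

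The epidermal list shared 7 symbols with the border list and none with the neural list. It had 22 of 29 measured genes higher ventrally than dorsally and none dorsally (median -1.36), beside 1.16% and 1.33% of all named genes. Along the other axis 17 of 30 were cap-high and 2 vegetal-high (median 2.05), beside 7.28% and 10.8%. The dorsal-ventral difference of kctd15.L had the sign of this list's median and that of zic4.L and irx2.L the sign of the neural list's. Both zic4.L and irx2.L belong to the neural list and count in its median, so their match with it is partly built in. The summed epidermal markers given above were, like kctd15.L, higher in the cap and ventrally than dorsally. They were lowest vegetally, as were kctd15.L, sox2.L and lhx5.S. The part of these markers in the patterns was not tested.

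Genes of the signals that set up neural induction were counted too. This list mixes ligand genes such as bmp4.S and wnt8a.L with antagonist genes such as frzb.S, so its counts are not counts of neural inducers. No chordin or noggin gene was measured in it. Of 16 measured between the marginal zones, 6 were higher dorsally and 6 ventrally (median 0.17), beside 1.33% and 1.16% of all named genes. Of 15 measured between cap and vegetal explant, the vegetal explant was the higher side for 12 and the cap for none (median -2.92), where these sides held 10.8% and 7.28% of all named genes. Among them were the Wnt antagonist gene frzb.S (at least 375-fold) and the Wnt ligand gene wnt8a.L (at least 115-fold). Against the vegetal explant, the cap was thus the 2-fold lower side for most genes of this list. For sox2.L, lhx5.S and kctd15.L it was the higher side, on probe sets that passed the filter only through the cap. For irx2.L cap and vegetal explant were 1.02-fold apart, and zic4.L did not enter. Whether the patterns of the list and of these genes are related was not tested.

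**Figure D4:**
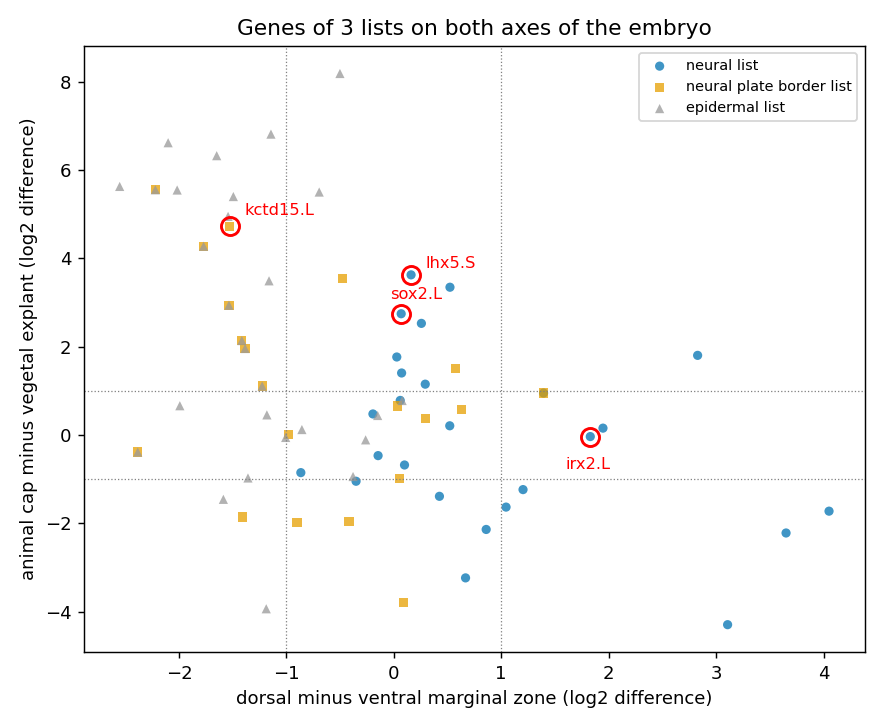
Genes of the neural (26 genes), neural plate border (20) and epidermal (28) lists by their dorsal minus ventral (horizontal axis) and cap minus vegetal (vertical axis) log2 differences, for genes measured on both axes; dotted lines mark 2-fold and red circles sox2.L, lhx5.S, irx2.L and kctd15.L, while zic4.L was not measured between cap and vegetal explant. The epidermal genes fill the upper left, where kctd15.L lies, with 20 of 28 higher in the cap and ventrally. Of the 26 neural genes, 22 lie to the right of 0. These counts take the sign alone, without the 2-fold rule, and were not made over all genes. Values near 0 can change side: scaling to hybridisation controls moved sox2.L to -0.14 and lhx5.S to -0.045 on the horizontal axis. The axes use different arrays, and some genes stand in more than 1 list.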

How the data were processed

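Total RNA was labelled with biotin from 100 ng per explant by the Ovation system, per the labels' protocols. The deposited values are linear intensity signals, 1 array per explant. How the authors summarised and scaled them is not stated in the labels used. The number of arrays limits the precision.

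Samples were assigned by title. Python 3.11.15 and pandas 2.3.3 were used. Signals were used as deposited, since array medians spanned 0.21 (log2). They were floored at the 20th percentile of all values, filtered at the median, and compared without the 120 control probe sets. Where several probe sets of a gene passed, their log2 signals were averaged. Of 9304 probe sets with 1 symbol, 9227 matched RefSeq. A gene list counts symbols ending in .L or .S.

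Named were the 5 genes, their families, at most 5 list genes each way by size, and the 3 nearest profiles per gene. The genes and lists were chosen with earlier results of these data known. Counting was tested on simulated arrays, with changes put only into bright probe sets and with less noise than the spread of dim ones. It therefore does not bear on dim genes such as zic4.L and irx2.L. Alternatives were other scalings, floors, filters, fold limits and probe set choices. No sequence is shown, as none was used here.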

Additional observations from a re-analysis of the deposited data

How the results depend on the processing

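Of 209 log2 differences recomputed for the 5 genes, 186 moved by less than the robust SD between the marginal zones. None that was 2-fold or more changed sign. Many of the 209 could not move. The genes zic4.L, irx2.L and kctd15.L have 1 probe set each, so the brightest probe set and the lack of a filter return the same value. Differences that dropped out under a setting are not among the 209, so the share of 186 overstates how stable the values are. With no filter, sox2.L had 1.86 (cap minus vegetal), 0.73 (dorsal minus ventral), -0.16 (cap minus dorsal), 0.57 (cap minus ventral), 2.02 (dorsal minus vegetal) and 1.28 (ventral minus vegetal), and lhx5.S had 0.49 (dorsal minus ventral), 2.83 (dorsal minus vegetal) and 2.35 (ventral minus vegetal). With a filter at the 60th percentile, or with the brightest probe set, lhx5.S had 4.89 for cap minus vegetal and 0.58 for cap minus ventral. Bounds of lhx5.S over the vegetal explant follow the floor by construction: at the 10th percentile they were 4.07 (cap), 5.35 (dorsal) and 5.19 (ventral), and at the 30th 3.19, 3.61 and 3.449. The 30th percentile also gave kctd15.L 4.0 (cap), 2.32 (dorsal) and 3.84 (ventral) against the vegetal explant, and zic4.L 1.92 for dorsal minus ventral.

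With the filter at the 60th percentile, 1 was higher dorsally than ventrally instead of 2, 0 were higher in the cap than ventrally instead of 2, 2 were higher dorsally than vegetally instead of 4, and 0 were higher vegetally than ventrally instead of 1. With the brightest probe set, 1 was higher in the cap than ventrally. At 4-fold, 1 was higher dorsally and 0 ventrally between the marginal zones, 0 were higher in the cap than in either marginal zone, and 0 were higher vegetally than ventrally. At 1.5-fold, 2 were higher in the cap than dorsally and 1 dorsally than in the cap.

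Centring arrays on their medians put the median of all probe sets at 0.21 for cap minus vegetal, and scaling to hybridisation controls put it at -0.22 for dorsal minus ventral and 0.26 for ventral minus vegetal. Under the control scaling irx2.L was no longer 2-fold lower ventrally than vegetally (0 genes instead of 1), and the small differences of sox2.L (-0.14) and lhx5.S (-0.045) between the marginal zones and of kctd15.L between cap and ventral zone (-0.007) had the other sign. This scaling also gave 74 probe sets higher dorsally and 185 ventrally (112 and 95 as deposited, a dorsal share of 28.6% instead of 54.1%), 61 higher in the cap than ventrally (116 as deposited, a cap share of 14.6% instead of 30.7%), and 1121 higher ventrally and 513 vegetally (674 and 795, a ventral share of 68.6% instead of 45.9%). Median centring moved the cap share against the vegetal explant from 43.8% to 59.2%, that against the ventral zone to 41.8%, the dorsal share against the vegetal explant from 44.5% to 56.0% and the ventral share to 56.0%. No filter raised 9 of 12 probe set counts by over 1.5 times. Of 96 list counts 5 moved as much: the border list had 4 genes higher dorsally with no filter and 1 with the 60th percentile, instead of 2, the neural list had 1 gene higher ventrally with the control scaling and with no filter, instead of 0, and the epidermal list had 1 gene higher vegetally with the brightest probe set, instead of 2. No paired analysis was possible because each explant has 1 array.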

Other observations

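Genes whose symbol starts with lmo, a group taken by name whose proteins lack the homeodomain, had patterns unlike that of lhx5.S. The gene lmo4.2.S had 677 in the ventral marginal zone against 211 dorsally, 160 in the cap and 214 vegetally, and its partner lmo4.2.L had 843, 415, 278 and 657 in that order. A second probe set of lmo4.2.L stayed at or below 28.8. The gene lmo4.1.S was high vegetally, with 334 against 122 or less elsewhere on its brightest probe set, and lmo7.S was even, between 215 and 257 on its brighter one. Both lmo4.2 copies were thus more than 2-fold higher ventrally than dorsally (3.21-fold and 2.03-fold), where zic4.L and irx2.L were low.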
